A study of Mus musculus with 8 samples.

Results

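Promoters bound by both Myc and E2f3 in Rb-deficient crypt cells of the mouse intestine were described. A co-bound promoter site was defined as an Rb-deficient crypt Myc site within 1 kb of a transcription start site of a protein-coding gene (GENCODE M1 annotation, build mm9) and within 250 bp of an Rb-deficient crypt E2f3 site. This rule selected 934 sites among the 2217 Myc sites near a start, the 31397 Myc sites of that library and the 284230 sites of all 8 libraries. The 934 sites lay near starts of 940 genes, which was 4.20% of the 22380 protein-coding genes. The members were chosen by the positions listed for Rb-deficient crypt Myc and E2f3, so the presence of both factors there and the distance limit are descriptions and not findings. Start sites of every transcript of a protein-coding gene were used, and 743 of the 934 sites also lay within 1 kb of the start of a protein-coding transcript.

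Binding was measured by ChIP-exo-seq, in which an exonuclease trims precipitated DNA back to the crosslinked protein. The 8 libraries were E2f3 and Myc precipitates from crypt cells and from villus cells of Rb-deficient and of control mice, with 1 library per combination and therefore no replicate. Per the labels, the Rb-deficient mice (genotype Rb KO) had lost Rb through Ah-cre, an inducible Cre recombinase active in the intestine, the controls were wild type, and all mice were on a mixed background of C57BL/6, 129 and FVB/N. Not given in the sources used here are the mice's ages, the number of mice per library, the inducing dose and the share of cells without Rb. Lists of binding sites measure neither the deletion nor gene expression, so the genotype and cell type labels could not be checked against markers. No test between groups was possible. Intervals are exact 95% binomial (Clopper-Pearson) intervals and cover counting error only, and sequencing depth is unknown for every library. The lists ranged from 4119 sites in Rb-deficient villus Myc to 159181 in control crypt Myc.

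E2f3 is an activating member of the E2F family, which binds DNA with a DP partner and turns on genes for the G1/S transition and DNA synthesis. The retinoblastoma protein Rb binds E2F factors and represses their targets until cyclin-dependent kinases phosphorylate it. Myc binds as a dimer with Max to the E-box and is known for driving genes of ribosome production, translation, nucleotide synthesis and metabolism. Stem and progenitor cells of the intestinal epithelium divide in the crypts, whereas villi are covered by differentiated cells.

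The sequences below show the 4 kinds of co-bound promoter that the results turn on. The E-box was taken as CACGTG, which reads the same on both strands, and the E2F motif as TTCCCGC or TTCGCGC or TTGCCGC or TTGGCGC on either strand. A Myc site was said to have an E-box, and its E2f3 partner (the nearest E2f3 site) an E2F motif, when the motif lay within 50 bp of the position. Capitals mark the E-box nearest the Myc position and the E2F motif nearest the E2f3 position. Sequences come from NCBIM37, the assembly on which mm9 rests, and run 5′ to 3′ on the strand of the gene from the outer edge of one site or motif to that of the other, with a few bases added. Both motifs were present at Tfdp1 (the DP1 partner of E2F factors) at chr8:13338336-13338402 (plus strand), at Ccne2 (cyclin E2) at chr4:11117952-11118075 (plus strand) and at Klf4 (a transcription factor of differentiated epithelium) at chr4:55545431-55545541 (minus strand).
Tfdp1: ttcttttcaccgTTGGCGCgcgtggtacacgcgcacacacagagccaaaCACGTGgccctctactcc
Ccne2: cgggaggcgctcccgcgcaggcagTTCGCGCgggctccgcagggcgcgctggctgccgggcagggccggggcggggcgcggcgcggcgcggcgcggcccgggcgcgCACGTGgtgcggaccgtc
Klf4: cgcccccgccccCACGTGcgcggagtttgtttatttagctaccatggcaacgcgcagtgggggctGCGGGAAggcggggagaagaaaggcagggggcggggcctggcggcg
In the Tfdp1 sequence the Myc position was base 53 and the E2f3 position base 22, counted from 1 at the 5′ end. At Ccne2 they were bases 110 and 13, and at Klf4 bases 15 and 99.

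Promoters with an E-box and no E2F motif at the partner were represented by Eif4g2 (a translation initiation factor) at chr7:118221338-118221371 (minus strand), Phospho1 (a phosphatase of bone mineralisation) at chr11:95685587-95685685 (plus strand) and Srm (spermidine synthase) at chr4:147965408-147965457 (plus strand).
Eif4g2: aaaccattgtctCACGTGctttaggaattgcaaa
Phospho1: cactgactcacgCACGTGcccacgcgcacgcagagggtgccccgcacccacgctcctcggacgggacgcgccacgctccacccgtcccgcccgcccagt
Srm: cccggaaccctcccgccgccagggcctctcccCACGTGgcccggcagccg
In all 3 of these the E-box sat at the Myc position, which was base 15 at Eif4g2, base 16 at Phospho1 and base 36 at Srm.

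Promoters with an E2F motif at the partner and no E-box were represented by Rps10 (a protein of the small ribosomal subunit) at chr17:27772288-27772348 (minus strand), E2f3 itself at chr13:30076917-30076985 (minus strand) and Atad2 (a chromatin ATPase with a bromodomain) at chr15:57966866-57966965 (minus strand).
Rps10: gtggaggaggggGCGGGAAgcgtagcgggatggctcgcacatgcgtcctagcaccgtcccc
E2f3: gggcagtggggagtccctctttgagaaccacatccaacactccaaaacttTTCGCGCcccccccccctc
Atad2: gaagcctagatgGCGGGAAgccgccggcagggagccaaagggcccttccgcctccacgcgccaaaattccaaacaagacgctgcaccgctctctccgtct
The Atad2 sequence holds a further E2F motif in lower case, gcgccaa, the reverse complement of TTGGCGC. At Rps10 and Atad2 the E2f3 position, base 16 in each sequence, lay on the motif. At the E2f3 gene the E2f3 position was base 13, outside the motif in capitals.

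Most co-bound promoters had neither motif, and these were represented by Scmh1 (a Polycomb group protein) at chr4:120189386-120189476 (plus strand) and Pacsin2 (a membrane-shaping protein) at chr15:83262646-83262692 (minus strand).
Scmh1: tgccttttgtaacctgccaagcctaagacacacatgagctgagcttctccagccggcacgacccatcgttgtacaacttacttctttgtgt
Pacsin2: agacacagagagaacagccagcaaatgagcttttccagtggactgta
Both sequences hold no capitals, although both factors were called in them and in all 6 other libraries a site was listed there.

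An E-box was found at 138 of the 934 co-bound Myc sites (14.8%, interval 12.6 to 17.2). The share was 36.6% (34 to 39.3) at the 1283 Rb-deficient crypt Myc promoter sites with no E2f3 site within 250 bp, 2.69% at all 69976 start sites of protein-coding genes and 1.23% in windows of the same length 2 kb to each side of the co-bound sites. Co-bound Myc sites thus held an E-box more often than their flanks and less often than Myc sites bound without E2f3, by more than the counting error. An E2F motif was found at 111 of the 934 E2f3 partners (11.9%, 9.88 to 14.1). Among the 4394 E2f3 promoter sites without Myc the share was 35.5% (34.1 to 36.9), at all start sites 4.48% and in the flanking windows 0.912%. With a window of 250 bp in place of 50 bp the E-box shares were 21.7% at co-bound and 44.3% at Myc sites without E2f3, and the E2F shares 19.1% and 49.4%.

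Both motifs were present at 49 co-bound sites (5.25%), only an E-box at 89 (9.53%), only an E2F motif at 62 (6.64%) and neither at 734 (78.6%). Where an E-box was present the Myc position fell on its centre in 130 of 138 sites, and where an E2F motif was present the E2f3 position fell on its centre in 71 of 111. No Myc position was at the centre of an E2F motif and no E2f3 position at the centre of an E-box. How far the calling placed sites on motifs was not tested. The median GC content within 50 bp was 52.5% at co-bound Myc sites, 56.4% at Myc sites without E2f3, 65.3% at E2f3 sites without Myc and 58.4% at all start sites. The Sp/KLF motif GGGCGG, searched on both strands, was found at 17.5% of co-bound Myc sites and 22.3% of their E2f3 partners, against 55.5% of E2f3 sites without Myc and 21.7% of all start sites. The CCAAT box, a common element of cell cycle promoters, was found at 10.4% of co-bound Myc sites and 11.2% of all start sites.

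Near the 49 sites with both motifs lay starts of 54 genes, which were given no test for a shared function. Examples, chosen after their values were seen, were Cad (the enzyme that starts pyrimidine synthesis), Mthfd1 (folate metabolism), Rfc1 (the large subunit of the replication clamp loader), Hes1 (a Notch target), Exosc2 (an RNA exosome subunit), Ranbp1 (a regulator of Ran), Uba1 (the ubiquitin-activating enzyme) and Tomm20 and Tomm7 (mitochondrial import). At these 49 sites the centres of the 2 motifs were a median of 130 bp apart, from 18.5 to 292.5 bp.

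The Myc and E2f3 positions of a co-bound promoter were a median of 28 bp apart (quartiles 13.2 and 56 bp). They lay within 10 bp of each other at 180 sites (19.3%), within 50 bp at 669 (71.6%) and within 100 bp at 809 (86.6%), and on the same base at 9 (0.964%). Of the 9, those with the highest Myc scores were at Gpn2 (a GTPase), Gm11168 and Ccdc47 (an endoplasmic reticulum protein). The distance differed between motif classes. It was a median of 126 bp at the 49 sites with both motifs, 64 bp with an E-box only, 67 bp with an E2F motif only and 23.5 bp at the 734 sites with neither. The limit of 250 bp bears on the first of these, since with factors within 100 bp the medians were 52 bp with both motifs and 22 bp with neither. Only 9 of 49 sites with both motifs had the factors within 50 bp, against 595 of 734 with neither (81.1%). At the 14818 co-bound sites more than 1 kb from a start the median distance was 19 bp.

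**Figure D1:**
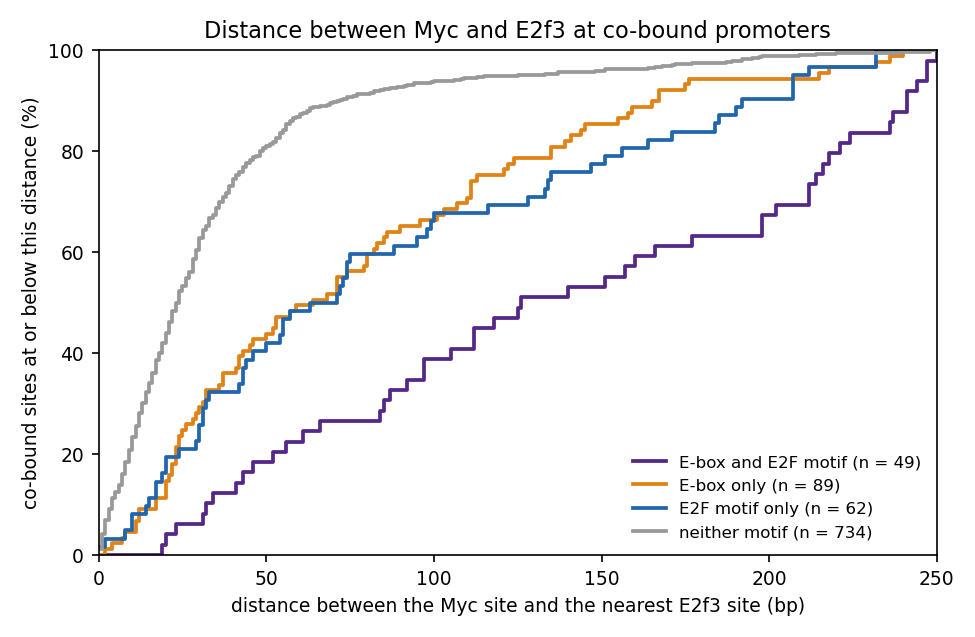
Cumulative share of co-bound promoter sites (vertical axis, %) with the nearest E2f3 site at or below a given distance from the Myc site (horizontal axis, bp), one line per motif class. The line for neither motif (n = 734) rises fastest and passes 81.1% by 50 bp, and the line for both motifs (n = 49) rises slowest and reaches 18.4% there.

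Along the direction of transcription of the nearest gene, E2f3 lay upstream of Myc at 482 sites (51.6%, 48.3 to 54.9) and downstream at 443, so neither order prevailed beyond counting error. One E2f3 site lay within 250 bp at 887 members, 2 at 46 and 3 at 1. Joining members within 250 bp of each other left 914 regions, and 18 regions held more than 1 member. Nearest the distance limit, Rfc1 (250 bp) and 1700029J07Rik (248 bp) were inside, and a Myc site at Rdh13 (a retinol dehydrogenase family member, 251 bp) and another at Gm10716 (253 bp) were outside. Nearest the start site limit, Entpd1 (1000 bp) and Adamts9 (999 bp) were inside and Rgs12 (1001 bp) and Pfkm (1002 bp) were outside. Genes with sites of both factors within 1 kb of a start numbered 1215, and 935 of them had a pair within 250 bp.

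Co-bound sites lay a median of 347 bp from the start, against 287 bp for Myc sites without E2f3 and 115 bp for E2f3 sites without Myc. They were upstream of the start at 544 of 934 sites. Of the members, 448 lay in introns, 312 outside protein-coding genes, 86 in a 5′ UTR, 40 in a coding exon, 37 in an exon of a non-coding transcript and 11 in a 3′ UTR. Sites with neither motif lay farther out (median 410 bp, 52.9% intronic, median GC 49.5%) than sites with both (180 bp, 26.5% intronic, GC 63.4%). The deposited score, whose meaning is not given in the sources used here, ran from 2.03 to 999.00 at the Myc sites (median 12.62) and from 2.04 to 999.00 at their partners (median 13.00). Within its own list the median co-bound Myc site was at the 61.2nd percentile, where Myc sites without E2f3 were at the 38.9th. The partners were at the 59.6th percentile, where E2f3 sites without Myc were at the 47.4th.

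A site was counted as found again in another library when that library had a site within 250 bp of the Myc position. For E2f3 sites without Myc the E2f3 position was used in its place. For a named gene, scores and presence were read only at its member with the highest Myc score. The 6 other libraries played no part in choosing the members. Control crypt E2f3 had a site at 686 of 934 members (73.4%, 70.5 to 76.3), and 39.0% of all 2217 Myc promoter sites had one. Rb-deficient villus E2f3 had a site at 490 (52.5%, 49.2 to 55.7) beside 24.5% of all Myc promoter sites, and control villus E2f3 at 250 (26.8%, 24 to 29.7) beside 12.4%. These E2f3 shares exceeded those at the E2f3 sites without Myc in control crypt (50.9%) and in control villus (17.9%), with intervals that did not overlap. In Rb-deficient villus (48.2%, 46.7 to 49.7) the excess was smaller and the intervals overlapped at their ends. Such overlap does not by itself place a difference within counting error. The shares rose with the partner's score. In the same order of libraries, they were 49.8%, 21.9% and 6.43% in the lowest tercile of E2f3 scores. In the highest tercile they were 90.4%, 84.3% and 53.5%. The lowest tercile thus did not exceed all E2f3 sites without Myc, and partners scored higher than those sites. The part of score in this contrast was not tested. Myc sites without E2f3 had E2f3 sites in 13.9%, 4.13% and 2.03% of cases, but these were chosen for lacking E2f3 in Rb-deficient crypt. All Myc promoter sites consist of these and the members.

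Control crypt Myc had a site at 700 members (74.9%, 72 to 77.7), and 58.6% of all Myc promoter sites had one. Rb-deficient villus Myc had a site at 125 (13.4%, 11.3 to 15.7) beside 6.31%, and control villus Myc at 195 (20.9%, 18.3 to 23.6) beside 9.83%. The Myc promoter sites without E2f3 were found again less often, at 46.8%, 1.17% and 1.79%. At points 5 kb to either side of the members the shares were between 0.697% and 4.29% in the 6 libraries, below those at the members. Members in the lowest tercile of Myc scores were found again at 57.6% (51.9 to 63.1) in control crypt Myc, 2.57% (1.12 to 5.01) in Rb-deficient villus Myc and 4.82% (2.72 to 7.83) in control villus Myc. In Rb-deficient villus this interval overlapped that of the Myc sites without E2f3 (0.656 to 1.92), whereas in control villus (1.14 to 2.68) it did not. The part of score in the contrast with Myc sites without E2f3 was not tested otherwise.

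**Figure D2:**
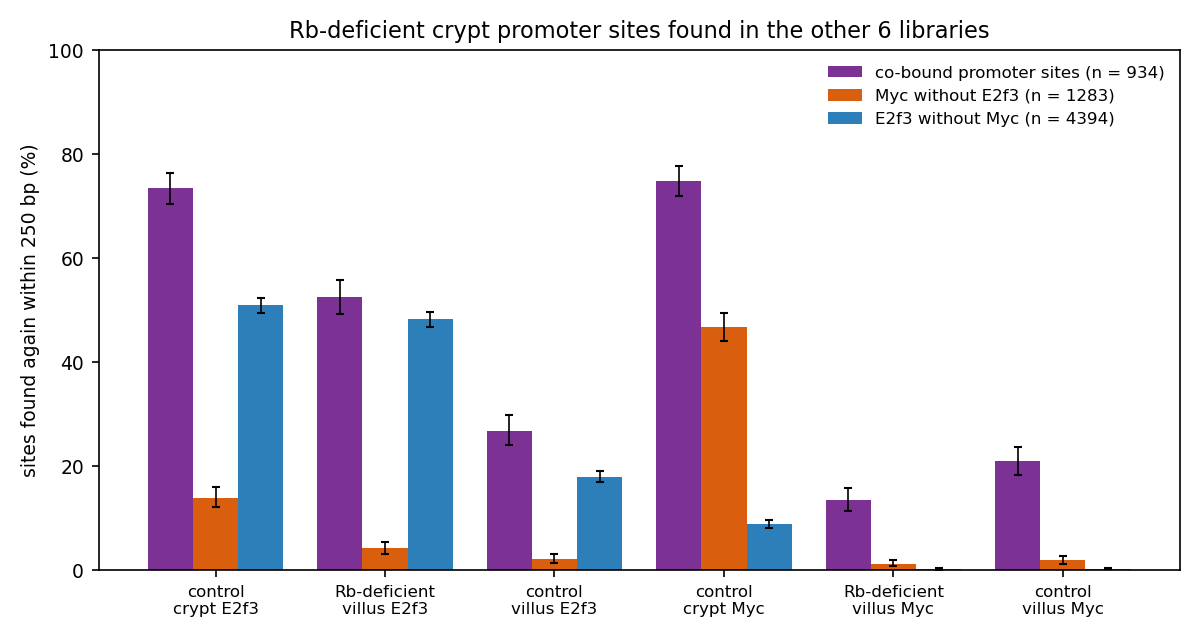
Share of Rb-deficient crypt promoter sites (vertical axis, %) with a site within 250 bp in each of the 6 other libraries (horizontal axis), for co-bound sites, Myc sites without E2f3 and E2f3 sites without Myc. Bars are shares with exact 95% intervals, and the co-bound bar is highest in all 6 libraries, from 13.4% to 74.9%.

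The length of the lists differed up to 159181 against 4119 sites, and shares move with length. With every list cut to its 4119 highest-scoring sites, the share of members found again was 18% in control crypt E2f3, 19.6% in Rb-deficient villus E2f3, 15.4% in control villus E2f3, 14.6% in control crypt Myc, 13.4% in Rb-deficient villus Myc and 11.6% in control villus Myc. The range over libraries narrowed to these values, and the intervals of control crypt E2f3 (15.6 to 20.6) and Rb-deficient villus E2f3 (17.1 to 22.3) overlapped. The same members were scored in both libraries, which overlap of intervals does not take into account. Myc sites without E2f3, chosen for lacking E2f3 in Rb-deficient crypt, were found again at 0.624% to 1.17% in the same shortened lists. E2f3 sites without Myc were found again at 14% in control crypt, 20.7% in Rb-deficient villus and 11.5% in control villus E2f3, so in Rb-deficient villus the co-bound share was not higher.

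Both factors together were found within 250 bp at 564 members in control crypt (60.4%, beside 32.3% of all Myc promoter sites), at 101 in Rb-deficient villus (10.8%, beside 4.83%) and at 118 in control villus (12.6%, beside 5.73%). All Myc promoter sites include the members, and the rest were chosen for lacking E2f3 in Rb-deficient crypt. No other library had a site at 80 members (8.57%), and all 6 had one at 63 (6.75%). The commonest combination was control crypt E2f3 with control crypt Myc and nothing in villus, at 162 members. Control crypt E2f3, Rb-deficient villus E2f3 and control crypt Myc without the rest followed with 112. Among Myc sites without E2f3, 50.2% were in no other library and 2 of 1283 were in all 6. The 6 libraries include E2f3 libraries, so part of this contrast with the members follows from how the sites were chosen. Read the other way, 124 of the 152 promoter sites of Rb-deficient villus Myc (81.6%, 74.5 to 87.4) and 193 of the 235 of control villus Myc (82.1%, 76.6 to 86.8) lay at co-bound sites of Rb-deficient crypt. The corresponding share was 12.4% for control crypt Myc and 16.4% to 23.5% for the E2f3 libraries. These lists were longer, with 5926 promoter sites in control crypt Myc and 1056 to 3762 in the E2f3 libraries. Because the set of co-bound sites is fixed, this share can fall as a list grows. The contrast with villus Myc therefore cannot be read apart from list length, and it was not tested with lists of equal length.

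The E2f3 sites of other libraries lay close to the E2f3 partner, at a median of 9 bp in control crypt (106 of 686 on the same base), 9 bp in Rb-deficient villus (134 of 490) and 8.5 bp in control villus (52 of 250). From the Myc position the same sites were a median of 23 to 29 bp away. Myc sites of other libraries were a median of 13 bp (control crypt), 13 bp (Rb-deficient villus) and 15 bp (control villus) from the Myc position, with 13 of 700, 6 of 125 and 4 of 195 on the same base. From the E2f3 partner they were 16, 21 and 13 bp away.

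Presence in the other libraries differed by motif. In control crypt Myc, 85.1% (82.4 to 87.6) of the 734 sites with neither motif were found again, against 46.8% (34 to 59.9) with an E2F motif only, 38.2% (28.1 to 49.1) with an E-box only and 24.5% (13.3 to 38.9) with both. In control villus Myc the shares were 26.3% with neither and 2.25% with an E-box only. None was found among 62 sites with an E2F motif only and 49 with both, with intervals that reach 5.78% and 7.25%. The E2f3 libraries ordered the classes differently. Sites with an E2F motif only were found again at 85.5% in control crypt, 79% in Rb-deficient villus and 46.8% in control villus E2f3, and sites with an E-box only at 41.6%, 36% and 5.62%.

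**Figure D3:**
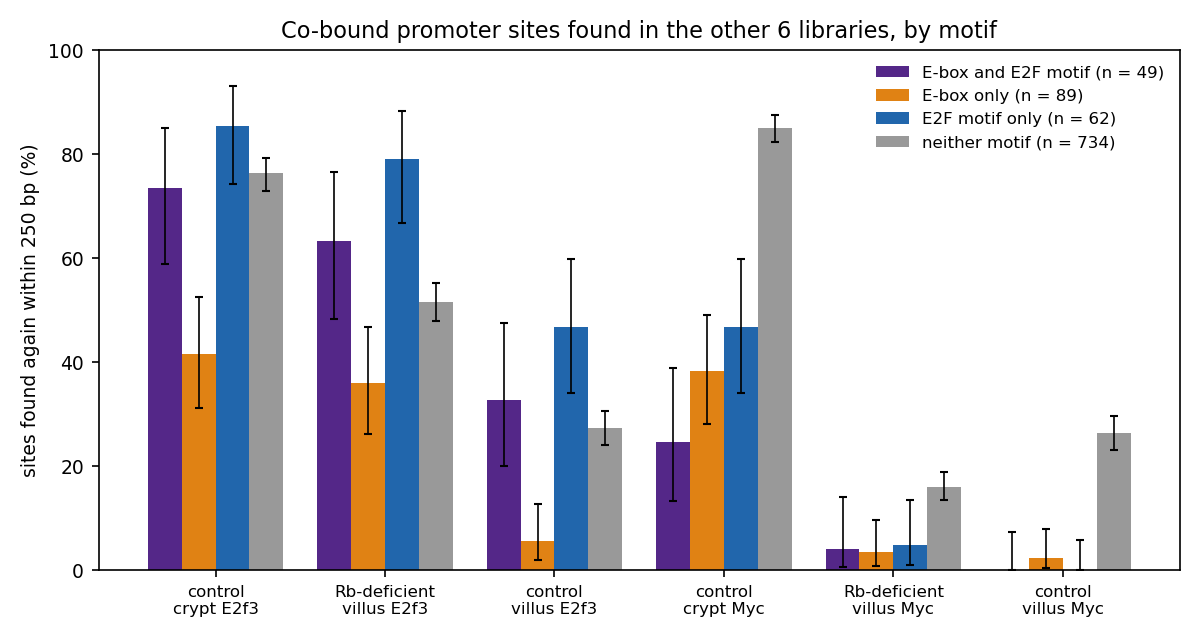
Share of co-bound promoter sites (vertical axis, %) with a site within 250 bp in each of the 6 other libraries (horizontal axis), by motif class, with exact 95% intervals. In control crypt Myc the bar for neither motif stands at 85.1% and that for both motifs at 24.5%, while in the 3 E2f3 libraries the bar for an E2F motif only is highest.

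In control crypt Myc the contrast was also seen among sites of like score. In the tercile of members with the highest Myc scores, 253 of 268 sites with neither motif (94.4%) and 8 of 26 with an E-box (30.8%) were found in control crypt Myc. In the middle tercile the shares were 87.5% and 50% (23 of 46), the narrowest gap, and in the lowest 71.1% and 22.7%. In Rb-deficient villus Myc it was not seen in the lowest tercile, where 5 of 218 sites with neither motif (2.29%) and 3 of 66 with an E-box (4.55%) were found, a difference within counting error. With lists of equal length the control crypt Myc shares over all scores were 17.7% for neither motif and 2.17% with an E-box. Sites at starts of other transcripts only (191) were found in control crypt Myc at 97.9%, and the 743 sites near a protein-coding transcript start at 69%. The 14818 co-bound sites away from promoters were found there at 98.4% and held an E-box at 2.07% and an E2F motif at 0.52%. Members within 10 bp of their partner were found there at 90.6%, and those 51 to 250 bp away at 43.4%. The parts of motif, distance and position in these shares cannot be told apart here.

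Across 29 lists of genes, co-bound promoters were most frequent, as shares, in DNA repair and checkpoint (4 of 25 genes), purine and pyrimidine synthesis (3 of 20) and Rb-E2F and G1/S regulators (4 of 28), beside 4.20% of all genes. Housekeeping genes were co-bound at 2 of 20 (10%), near the shares of the DNA replication (12.8%) and mitosis (12.2%) lists. None was found among 68 replication-dependent histone genes, 34 of lysosome and autophagy, 20 of villus enterocytes, 16 of secretory lineages, 16 of immune cells and 20 of other tissues. Olfactory receptor genes were co-bound at 7 of 1087, all with neither motif, as were 78.6% of all co-bound sites. The lists were chosen with earlier results of these data known, some share genes, and counts this small have wide error. Of the 940 co-bound genes, 79 were in at least 1 list.

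**Figure D4:**
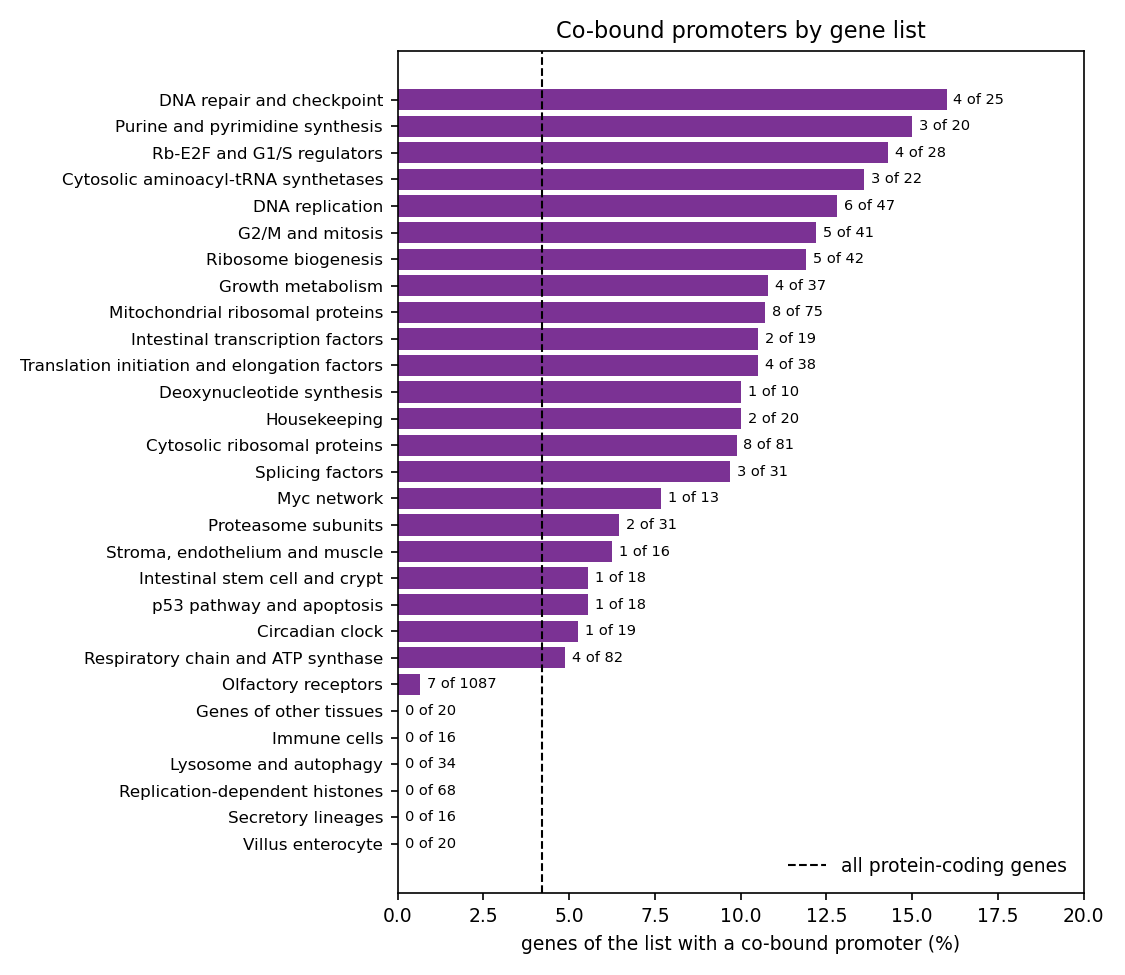
Share of the genes of each list with a co-bound promoter (horizontal axis, %), with the number of genes beside each bar and the share of all protein-coding genes, 4.20%, as a dashed line. The bar for DNA repair and checkpoint (4 of 25) is longest, and 6 lists have none.

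The lists differed in how Myc and E2f3 combined. For DNA replication, E2f3 sites were present at 43 of 47 genes (91.5%, beside 21.1% of all genes) and Myc sites at 8 (17%, beside 9.59%), and 6 of those 8 were co-bound. For ribosome biogenesis, Myc sites were present at 26 of 42 genes (61.9%) and E2f3 sites at 15 (35.7%), and 5 of the 26 were co-bound (19.2%, where 43.8% of all genes with a Myc site were). The same 2 counts, of Myc genes and of co-bound genes, were 7 and 5 for mitosis, and 27 and 8 for cytosolic ribosomal proteins.

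Among replication genes, Mcm6 (a subunit of the replicative helicase), Pola1 and Pold2 (polymerase subunits), Rfc1, Lig1 (DNA ligase) and Dbf4 (the activator of the Cdc7 kinase) were co-bound. Of these 6 genes, 4 had neither motif, beside 78.6% of all co-bound sites. The site at Mcm6 ranked low in both lists. Its Myc score was 2.11 (percentile 0.815 of its list) and its E2f3 score 3.71 (percentile 13.1). Rfc1 had Myc and E2f3 scores of 9.22 and 76.18 in Rb-deficient crypt, and E2f3 scores of 43.44 in control crypt and 39.91 in Rb-deficient villus, with no site in the other 4 libraries. At Pola1 the scores were 9.54 and 12.82, with 27.29 and 7.63 for control crypt and control villus E2f3, and 176.73 for control crypt Myc. Shmt1 (serine hydroxymethyltransferase) was the only co-bound gene of deoxynucleotide synthesis.

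In the Rb-E2F list, Rbl2 (p130, a relative of Rb), E2f3, Tfdp1 and Ccne2 were co-bound, and Tfdp1 and Ccne2 had both motifs. Ccne2 had a Myc score of 12.63 and an E2f3 score of 22.71 in Rb-deficient crypt, and E2f3 sites in control crypt (13.65), Rb-deficient villus (16.30) and control villus (2.68), but no Myc site in the 3 other Myc libraries. Tfdp1 had scores of 26.20 and 4.26 and a single further site, for control crypt E2f3 (2.81). Ccne2 and Tfdp1 each had 2 members, and only the one with the higher Myc score is described. The E2f3 gene had E2f3 sites in all 4 E2f3 libraries (17.71, 20.41, 5.58 and 2.02 in Rb-deficient crypt, control crypt, Rb-deficient villus and control villus) and Myc sites in both crypt libraries (33.32 and 112.57). Rbl2 had scores of 7.86 and 6.80 and further sites in control crypt only, for E2f3 (7.18) and Myc (78.00). At the member described, all 4 genes had an E2f3 site in control crypt, where 73.4% of all members had one. None had a Myc site there in villus, where 13.4% and 20.9% of members did.

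Mitosis genes were co-bound at 5 of 41, beside 4.20% of all genes, and all 5 had neither motif, as did 78.6% of all co-bound sites. They were Birc5 (survivin), Bub1b (a spindle checkpoint kinase), Top2a (topoisomerase II), Ncaph and Smc4 (condensin subunits). Top2a had a site of both factors 602 bp downstream of a start, with scores of 20.94 for Myc and 19.40 for E2f3, and E2f3 sites in the 3 other E2f3 libraries (21.44, 4.96 and 7.34) and a Myc site in control crypt (142.27). DNA repair gave Brca2, Bard1 (the partner of Brca1), Fanci (Fanconi pathway) and Atad2. Atad2 had an E2f3 score at the cap, 999.00, in both crypt libraries, and Myc at 13.96, with no site in the other Myc libraries.

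Of the purine and pyrimidine synthesis genes 3 of 20 were co-bound, and of the growth metabolism genes 4 of 37, beside 4.20% of all genes. Cad had scores of 12.43 for Myc and 9.09 for E2f3, with E2f3 sites in control crypt (16.60) and Rb-deficient villus (9.02) and a Myc site in control crypt (10.81). Mthfd1 had scores of 6.12 and 59.97 and E2f3 sites in control crypt (40.18) and Rb-deficient villus (24.63) only. Ctps (CTP synthase) was the other member of the list. The growth metabolism genes were Odc1 (ornithine decarboxylase) and Srm of polyamine synthesis, and Slc7a5 and Slc3a2, the chains of a large amino acid transporter. Srm, with an E-box and scores of 16.33 and 6.14, had no site in any other library. Slc3a2 had scores of 10.22 and 49.23, E2f3 sites in the 3 other E2f3 libraries (17.90, 19.49 and 3.49) and a control crypt Myc site (10.48).

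Genes of ribosome and protein production included Nop56 and Nop58 (core proteins of box C/D small nucleolar ribonucleoproteins), Nolc1 (a nucleolar phosphoprotein), Utp3 and Mybbp1a. Nolc1 and Nop58 each had an E2f3 score of 999.00 in Rb-deficient crypt, at the 99.8th percentile, with Myc at 20.48 and 17.24. Cytosolic ribosomal proteins were co-bound at 8 of 81 and mitochondrial ones at 8 of 75, beside 4.20% of all genes. Of the cytosolic tRNA synthetases, Vars, Iars and Rars were co-bound, all with neither motif (78.6% over all co-bound sites) and all with a control crypt Myc site (120.04, 96.96 and 71.09), which 74.9% of all members had. Eif4g2 was found in all 6 other libraries and had an E-box, the only one of the 63 such members with a motif. Its Myc scores were 83.23 in Rb-deficient crypt, 999.00 in control crypt, 6.31 in Rb-deficient villus and 26.77 in control villus.

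**Figure D5:**
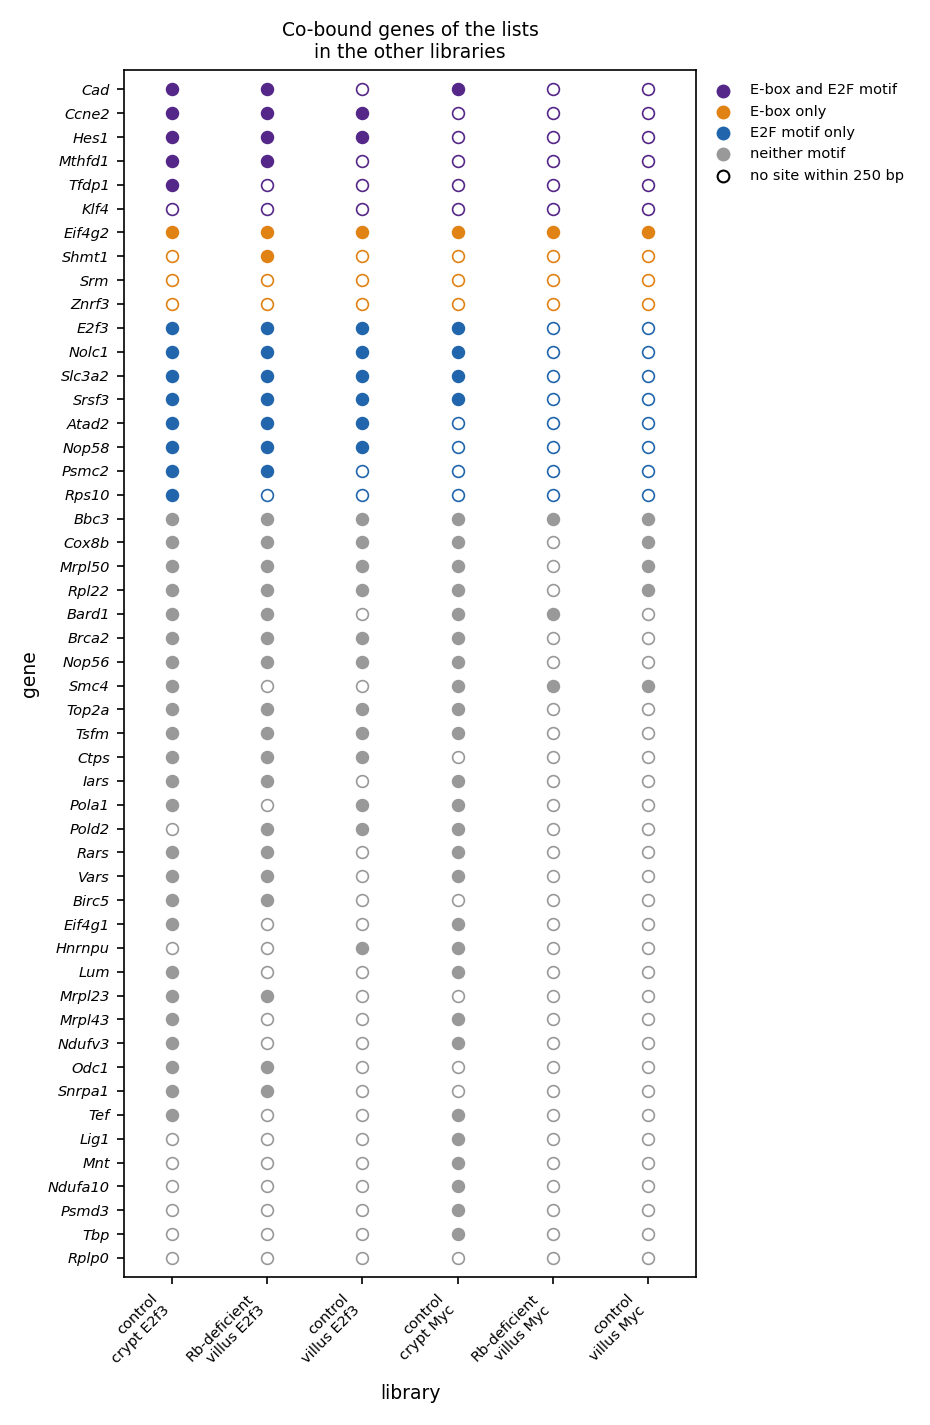
The 50 co-bound genes named from the lists other than olfactory receptors (vertical axis) and the 6 other libraries (horizontal axis), with a filled point where the library has a site within 250 bp and the colour giving the motif class. Filled points are sparse in the 2 villus Myc columns, where of the genes drawn Eif4g2, Bbc3 and Smc4 have both, and of the 10 genes with an E-box, at the top of the plot, Cad and Eif4g2 have a control crypt Myc site.

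Among high-scoring members, Taco1 (a translational activator of cytochrome oxidase) had scores of 130.05 for Myc and 999.00 for E2f3 and a site in all 6 other libraries. Pacsin2 had scores of 175.50 and 76.04, with 74.48, 37.23 and 30.19 in the 3 other E2f3 libraries and 999.00, 17.06 and 33.36 in control crypt, Rb-deficient villus and control villus Myc. Pkn3 (a kinase), Kctd1, Cep250 (a centrosome protein) and Pnpla8 (a phospholipase) were also in all 6, and Ccdc9 in 5. Bbc3 (Puma, a cell death gene) had scores of 148.80 and 64.74 and was in all 6. None of these had an E-box or an E2F motif at its partner, and 78.6% of all co-bound sites had neither. No difference between scores of separate libraries was interpreted.

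The members also included 16 sites in the first 3.05 Mb of chromosome 9 and 2 on M, the mitochondrial genome. Gm10106, Gm11167, Gm10720, Gm10719 and Gm17535, on chromosome 9, had Myc scores of 117.71 or more and were in 5 or 6 other libraries. They are uncertain, since how reads of repeated sequence were placed there is unknown. Leaving out these 18 sites moved no share or median of the summary values beyond its interval. Members found in no other library included Dhps (deoxyhypusine synthase), Phospho1, and Myo19 and Pigw, which share a site with both motifs between them. Another was mt-Nd2, on M, whose site lay in a coding exon with neither motif and is uncertain as well. The site at Dhps had scores of 49.98 for Myc and 5.75 for E2f3, and that at Myo19 had 41.44 and 6.02. At the intestinal genes Klf4 and Znrf3 (a ubiquitin ligase that removes Wnt receptors) the Myc scores were 3.87 and 4.14, and no other library had a site. Hes1 had scores of 3.17 and 37.40 and E2f3 sites in all 3 other E2f3 libraries (16.86, 11.03 and 12.93).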

How the data were processed

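ChIP-exo-seq site lists of E2f3 and Myc from crypt and villus cells of Rb-deficient and control mice were used, 1 library per group. The submitters' processing notes name Bowtie2 2.2.1, MACS2 2.0.10 and build mm9. By their file names, the deposited lists hold GEM events that overlap MACS2 peaks, merged and without removal of duplicates. Not given in the sources used here are the merged units, the settings and the read numbers. Every list holds 1-bp positions, each with a deposited score from 2.00 to a cap of 999 from the authors' pipeline. The score was used to rank sites within a list only.

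Positions were shifted by 1 base because the centre of the E2F motif then lay at the site for 77% of Rb-deficient crypt E2f3 sites with one. Start sites (69976, of 22380 genes) and sequence came from GENCODE M1 and NCBIM37. Members, motifs, gene lists and genes to name were chosen with earlier results of these data known. Named genes were the 12 highest in both lists, up to 3 per gene list by Myc score, the 5 highest found in all or in none of the other libraries, and those at distance 0 or nearest 250 bp. Some genes that this rule names are not reported here. Other names (in the lists, with both motifs or at the limits) were chosen after their values were seen. Scripts (Python 3.11.15, pandas 2.3.3, scipy 1.17.1, pysam 0.24.0) were tested on simulated data. Shares carry exact 95% intervals. The limit given for a count of 0 is the upper end of that interval. Of the genes in the lists, 5 symbols were not found. Alternatives covered the distances, score threshold, start sites, window for presence, list length, motif window and joining of sites.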

Additional observations from a re-analysis of the deposited data

How the results depend on the processing

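No paired analysis was possible because each group had 1 library and no result came from a test. Depth is unknown, and shares follow list length and the windows chosen; the cause of each shift was not tested. Among the 15 summary values, every share and median stayed within its interval with sites joined. The same held, in an alternative chosen after seeing the data, without the start of chromosome 9 and M. The counts have no interval. They were 914 sites and 940 genes with sites joined, and 916 and 929 without the start of chromosome 9 and M. Libraries are ordered below as control crypt, Rb-deficient villus and control villus.

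With factors within 100 bp (809 sites), shares were 76.3% for control crypt E2f3, 82.1% for control crypt Myc and 24% for control villus Myc, the median distance 24 bp (52 bp with both motifs), E-box 9.64%, E2F motif 7.54%, and sites with neither motif in control crypt Myc 89%. With starts within 500 bp there were 595 sites and 599 genes, with 69.2%, 65.7% and 14.6% in the same 3 libraries, median distance 33 bp (26.5 bp with neither motif), E-box 19.2%, E2F motif 16.8% and neither motif in control crypt Myc 77.9%. In the upper part of both lists by score there were 404 sites and 420 genes, with 89.1%, 71.8% and 44.8% for E2f3 and 86.1%, 24.8% and 39.6% for Myc, median distance 23 bp (21 bp with neither motif), E-box 7.92%, E2F motif 9.41% and neither motif in control crypt Myc 92.7%. With protein-coding transcripts only (743 sites, 757 genes), control crypt Myc was 69%, E-box 17.4%, E2F motif 14.4% and neither motif in control crypt Myc 80.7%. With presence within 100 bp the E2f3 shares were 66.5%, 45.5% and 23.7%. At equal list length (4119 sites) they were 18%, 19.6% and 15.4%, with 14.6% in control crypt Myc and 11.6% in control villus Myc, and in control crypt Myc 17.7% with neither motif and 2.17% with an E-box. With motifs within 250 bp, E-box was 21.7% and E2F motif 19.1%, and in control crypt Myc 87.7% with neither motif and 48.8% with an E-box were found. The number of other libraries stayed the same at 64 of 78 named genes with presence within 100 bp and at 28 of 78 at equal length.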
